A study of Mus musculus with 6 samples.

Results

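The 9 complement genes described here were measured in mouse testes. They were the 3 chains of C1q (C1qa, C1qb, C1qc), the proteins that build the convertases (C2, C3, C4b, Cfb) and the receptors of the released fragments (C3ar1, C5ar1). All were found by name among the non-control probes of the arrays, which gave 10 probes for the 9 genes, of 55681 probes with 34844 gene names in all. C3 had 2 probes and every other gene had 1. Messenger RNA was measured in single whole testes of male mice, 5 months old, on one-colour Agilent arrays with 1 testis per array. The AROM+ group was 3 mice transgenic for aromatase over-expression (aromatase makes oestrogens from androgens), and the other group was 3 wild-type (WT) mice. Both groups had the C57BL/6 background. The labels do not give the promoter, the species of the transgene's sequence or the number of founder lines.

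Complement is a cascade of plasma and tissue proteins that marks cells and debris for uptake. C1q binds immune complexes or dying cells and starts the classical pathway, whose proteases cut C4 and C2 to form a convertase that cleaves C3, while factor B forms the convertase of the alternative pathway. Cleavage of C3 and C5 frees the anaphylatoxins C3a and C5a, which act on the receptors C3ar1 and C5ar1 of myeloid cells. Resident macrophages of many tissues make C1q, and the liver is the main source of most of the circulating components.

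Each array had between 76.6% and 80.6% of its spots well above background, and no spot was saturated. All 6 arrays were on 1 slide, with WT in one row and AROM+ in the other, so position on the slide and group cannot be told apart. The labels name single testes and no pairing, and the p-values measure the spread between these testes. In whole testis, more cells of a type and more RNA per cell cannot be told apart. Levels are log2 intensities relative to the array's 75th percentile, given as mean ± SD (n = 3), and differences are AROM+ minus WT on the log2 scale with their SE from limma. Over all genes the median difference was −0.19.

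The RefSeq table held promoter windows of 5 of the 9 genes (C1qb, C1qc, C3, C3ar1 and C5ar1, GRCm38.p6). The 250 bases before the annotated start of C1qb, C1qc and C3 are shown, 5′ to 3′ on the gene's own strand, because the C1q genes are neighbours whose RNA was higher together and C3 holds a motif found in no other of the 5 windows. Capitals mark GAGGAA, a core bound by the myeloid factor PU.1, on either strand (TTCCTC is its reverse complement), and TTGNGAAA, a form of the C/EBP motif.
C1qb, chr4:136886201-136886450, minus strand: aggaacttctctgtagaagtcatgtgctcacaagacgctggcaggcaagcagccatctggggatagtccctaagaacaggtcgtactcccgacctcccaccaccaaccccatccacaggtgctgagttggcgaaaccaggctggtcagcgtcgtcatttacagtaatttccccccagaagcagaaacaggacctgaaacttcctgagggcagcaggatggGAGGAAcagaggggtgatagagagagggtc
C1qc, chr4:136892915-136893164, minus strand: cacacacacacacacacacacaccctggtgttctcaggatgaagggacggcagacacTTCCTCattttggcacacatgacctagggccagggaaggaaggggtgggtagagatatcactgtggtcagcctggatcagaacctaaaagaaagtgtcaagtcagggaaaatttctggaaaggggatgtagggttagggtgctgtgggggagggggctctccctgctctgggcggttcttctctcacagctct
C3, chr17:57228137-57228386, minus strand: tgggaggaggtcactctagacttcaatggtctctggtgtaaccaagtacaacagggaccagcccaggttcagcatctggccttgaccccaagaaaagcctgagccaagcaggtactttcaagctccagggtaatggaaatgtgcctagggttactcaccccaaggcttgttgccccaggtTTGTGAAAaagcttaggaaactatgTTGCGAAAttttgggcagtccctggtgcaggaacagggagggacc
GAGGAA began 30 bases before the start of C1qb and 193 bases before that of C1qc, and it was in 2 of the 5 windows against 23.3% of the 32851 windows of that length. TTGNGAAA was in the C3 window alone, at 70 and 45 bases before the start, against 4.23% of all windows. The oestrogen half-site GGTCA was in 4 of the 5 windows (35.2% of all windows), and the full palindromic oestrogen response element was in 0 of 5 (0.0639% of all windows). TTCNNNGAA, a STAT site, and the interferon-stimulated response element were in 0 of the 5 windows, against 7.02% and 2.98% of all windows. Motifs were searched on both strands. GGTCA is part of the full palindrome, and a match describes the letters only.

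Of the 9 genes, 8 were higher in AROM+ testes (limma, Benjamini-Hochberg adjusted p under 0.05 over 28925 genes), 0 were lower, and C4b was not called. Over all genes tested, 14.5% were called higher. The same 8 genes had no overlap between the groups, against 17.9% of all genes. The 9 genes were chosen with earlier results of these data known, so these counts are a description and not a test. C5ar1 passed the filter through the AROM+ arrays alone, and with the filter for all 6 arrays 7 genes were called. The median difference of the 9 genes was 2.16. Probe by probe, 9 of the 10 probes were called higher, where 14% of all probes were. Taken as one sum of linear levels, the 9 genes ran from 9.23 to 12.8 times the array's 75th percentile in WT and from 26.5 to 49.9 times in AROM+.

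**Figure D1:**
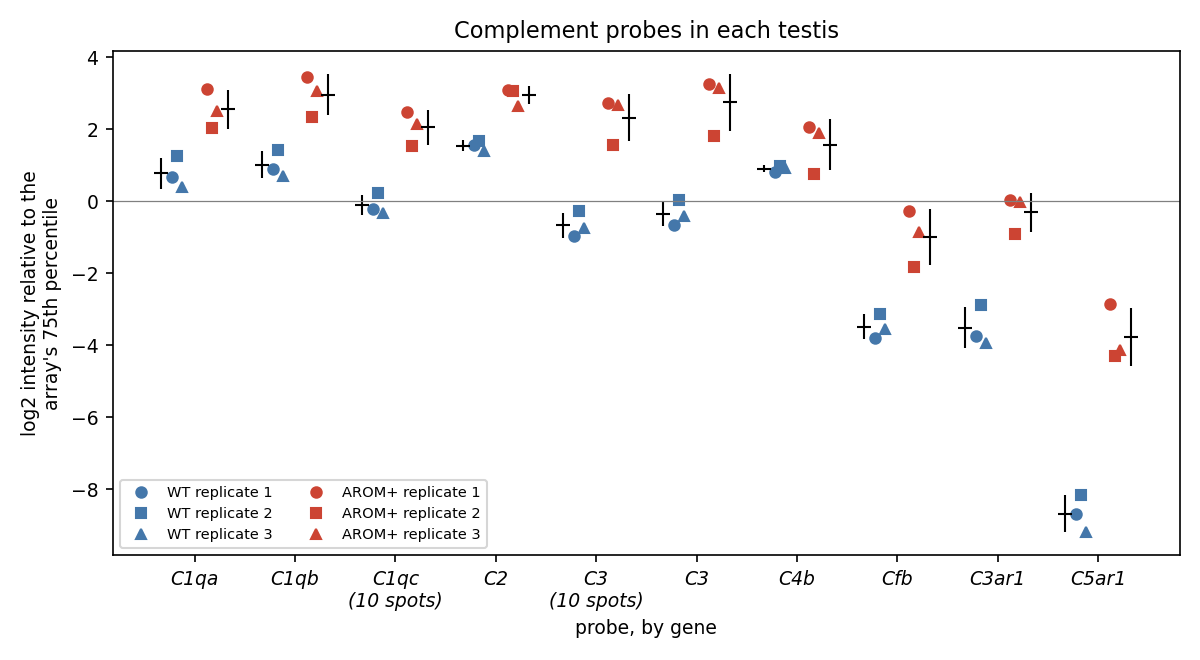
Log2 intensity of the 10 complement probes relative to the array's 75th percentile (vertical axis) by gene (horizontal axis); each symbol is 1 testis, blue for WT and red for AROM+, with a black bar for mean ± SD (n = 3). The groups lie apart for every probe except that of C4b, where AROM+ replicate 2 (0.76) lies below all WT values. The C5ar1 points of WT are below background.

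The 3 chains of C1q, which assemble into one molecule, were higher together. C1qa, probed on chromosome 4 at 136452409 to 136452468 (NCBI37/mm9, minus strand), read 0.69, 1.25 and 0.41 in WT replicates 1 to 3 and 3.13, 2.03 and 2.51 in AROM+ replicates 1 to 3. Every AROM+ testis was above every WT testis. The means were 0.78 ± 0.43 and 2.56 ± 0.55, a difference of 1.77 ± 0.32 or 3.42-fold (limma, adjusted p = 0.00755).

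C1qb (probe at 136436578 to 136436637) read 0.90, 1.44 and 0.72 in WT and 3.47, 2.34 and 3.08 in AROM+. The groups did not overlap, and the lowest AROM+ testis was again replicate 2. The difference was 1.94 ± 0.31, or 3.85-fold, from 1.02 ± 0.38 to 2.96 ± 0.57 (limma, adjusted p = 0.00598).

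C1qc (probe at 136445766 to 136445825) read −0.20, 0.22 and −0.31 in WT and 2.49, 1.53 and 2.16 in AROM+. The groups lay apart by more than 1 log2 unit. The difference was 2.16 ± 0.26, or 4.46-fold (limma, adjusted p = 0.00372), with means of −0.10 ± 0.28 and 2.06 ± 0.49. This probe is printed 10 times on each array, and its 8 to 10 unflagged spots had an SD of 0.0216 to 0.065 on the log2 scale within an array. Spot-to-spot error was thus several times smaller than the spread between testes. The linear levels of the 3 chains summed to between 3.78 and 6.26 in WT and between 12 and 25.5 in AROM+.

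By the root-mean-square difference of centred profiles over the 6 arrays, the genes closest to the mean profile of the 3 chains were Plvap (0.0897), Fcer1g (0.0987), Man1c1 (0.1), Expi (0.101) and Leprel2 (0.107). The single chains lay at 0.0363 (C1qb), 0.114 (C1qa) and 0.117 (C1qc) from that mean, which they make up. Fcer1g, the Fc receptor gamma chain, is also on the macrophage marker list used below. Plvap, Man1c1, Expi and Leprel2 are on none of the marker lists used below, so their cell type was not assessed here. The difference of Plvap was 1.96 by its brightest probe and 1.21 as a mean of its probes. The other complement genes were farther: Cfb at 0.332, C2 at 0.461, C3 at 0.617, C3ar1 at 0.652, C4b at 0.688 and C5ar1 at 1.50.

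Of the convertase proteins, C3, Cfb and C2 were higher in AROM+ testes and C4b did not pass the test. C3 is the protein on which all pathways converge. Its brighter probe (chromosome 17, 57343678 to 57343737), which represents the gene, read −0.65, 0.03 and −0.41 in WT and 3.26, 1.83 and 3.15 in AROM+. The AROM+ values were all higher, with replicates 1 and 3 close together and replicate 2 lower. The means were −0.35 ± 0.34 and 2.75 ± 0.80, a difference of 3.09 ± 0.39 or 8.54-fold (limma, adjusted p = 0.00394).

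The second C3 probe (57343416 to 57343475) gave nearly the same picture. It read −0.97, −0.27 and −0.75 in WT and 2.73, 1.58 and 2.68 in AROM+, without overlap. Its difference was 2.99 ± 0.34, or 7.97-fold (limma over probes, adjusted p = 0.00359). It is printed 10 times, and its 7 to 10 unflagged spots had an SD of 0.0489 to 0.0764 within an array.

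Cfb, factor B of the alternative pathway, lies beside C2 on chromosome 17 (probe from 34993502 to 34993858). It read −3.79, −3.12 and −3.54 in WT and −0.28, −1.82 and −0.85 in AROM+. The groups did not overlap, although the AROM+ testes spanned 1.54 log2 units. The difference was 2.50 ± 0.39, or 5.66-fold (limma, adjusted p = 0.00543), from −3.48 ± 0.34 to −0.98 ± 0.78.

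C2, the protease of the classical convertase (probe at 34999575 to 34999634), read 1.56, 1.69 and 1.40 in WT and 3.11, 3.07 and 2.66 in AROM+. Both groups were tight, and here AROM+ replicate 3 was the lowest of its group. The means were 1.55 ± 0.15 and 2.95 ± 0.25, a difference of 1.40 ± 0.15 or 2.63-fold (limma, adjusted p = 0.00316). C2 had the smallest difference of the 8 genes called, and its SE was also the smallest.

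C4b encodes C4, whose larger fragment pairs with that of C2. Its probe (34865328 to 34865387) also lists the RefSeq transcript of C4a, a close relative that has no probe under its own name here, so the 2 genes could share the signal. The WT testes read 0.81, 0.99 and 0.93, and the AROM+ testes 2.08, 0.76 and 1.89. AROM+ replicates 1 and 3 were above all WT testes and replicate 2 was below them all. The difference was 0.66 ± 0.33 with a 95% interval of −0.12 to 1.44 (limma, adjusted p = 0.136), from 0.91 ± 0.10 to 1.58 ± 0.71. Without AROM+ replicate 2 it was 1.07 (adjusted p = 0.00711), so 1 testis decided this call.

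The anaphylatoxin receptors had low levels in WT testes and were higher in AROM+. C3ar1, the receptor of C3a (chromosome 6, 122798222 to 122798281), read −3.74, −2.87 and −3.93 in WT and 0.05, −0.91 and −0.02 in AROM+. Every AROM+ testis was above every WT testis. The difference was 3.22 ± 0.36, or 9.30-fold, from −3.51 ± 0.57 to −0.30 ± 0.54 (limma, adjusted p = 0.00336). The unscaled processed intensity was 337, 507 and 279 for the WT testes and 5630, 2360 and 4210 for the AROM+ testes.

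C5ar1, the receptor of C5a (chromosome 7, 16832243 to 16832302), was not well above background on any WT array. It was well above background on all 3 AROM+ arrays. The WT arrays read 11, 12.9 and 7.24 in processed intensity, and the AROM+ arrays 759, 224 and 242. The measured means were −8.68 ± 0.52 and −3.77 ± 0.80 on the relative log2 scale. With WT values raised to a floor, C5ar1 was 9.51-fold higher in AROM+. This fold averages, over the WT arrays, the probe's own value or, if higher, the lowest value of any probe well above background. Probes not well above background can read higher than that floor, so 9.51 is not a strict lower limit. The fold itself was not tested. The fitted difference of 4.91 ± 0.43 (limma, adjusted p = 0.00236) rests on WT values not above background. With normexp background correction the fitted difference was 2.42.

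The testes kept much the same order from gene to gene. AROM+ replicate 1 was the highest of its group in 9 of 9 genes and AROM+ replicate 2 the lowest in 8 of 9. Within WT, replicate 2 was highest in 9 of 9. With quantile normalization these 3 counts were the same. With spike-in scaling they were 9, 7 and 7. The order is a description of 6 testes.

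The 41 other complement genes of the list, chosen by role, gave a mixed picture (limma, adjusted p under 0.05 over all genes). Of 36 tested, 14 were higher and 6 lower in AROM+, against 14.5% higher and 31.4% lower over all genes, and their median difference was 0.35. C1s2 and C4a have no probe under these names, and Colec10, C9 and C4bp were not well above background on all arrays of either group.

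**Figure D2:**
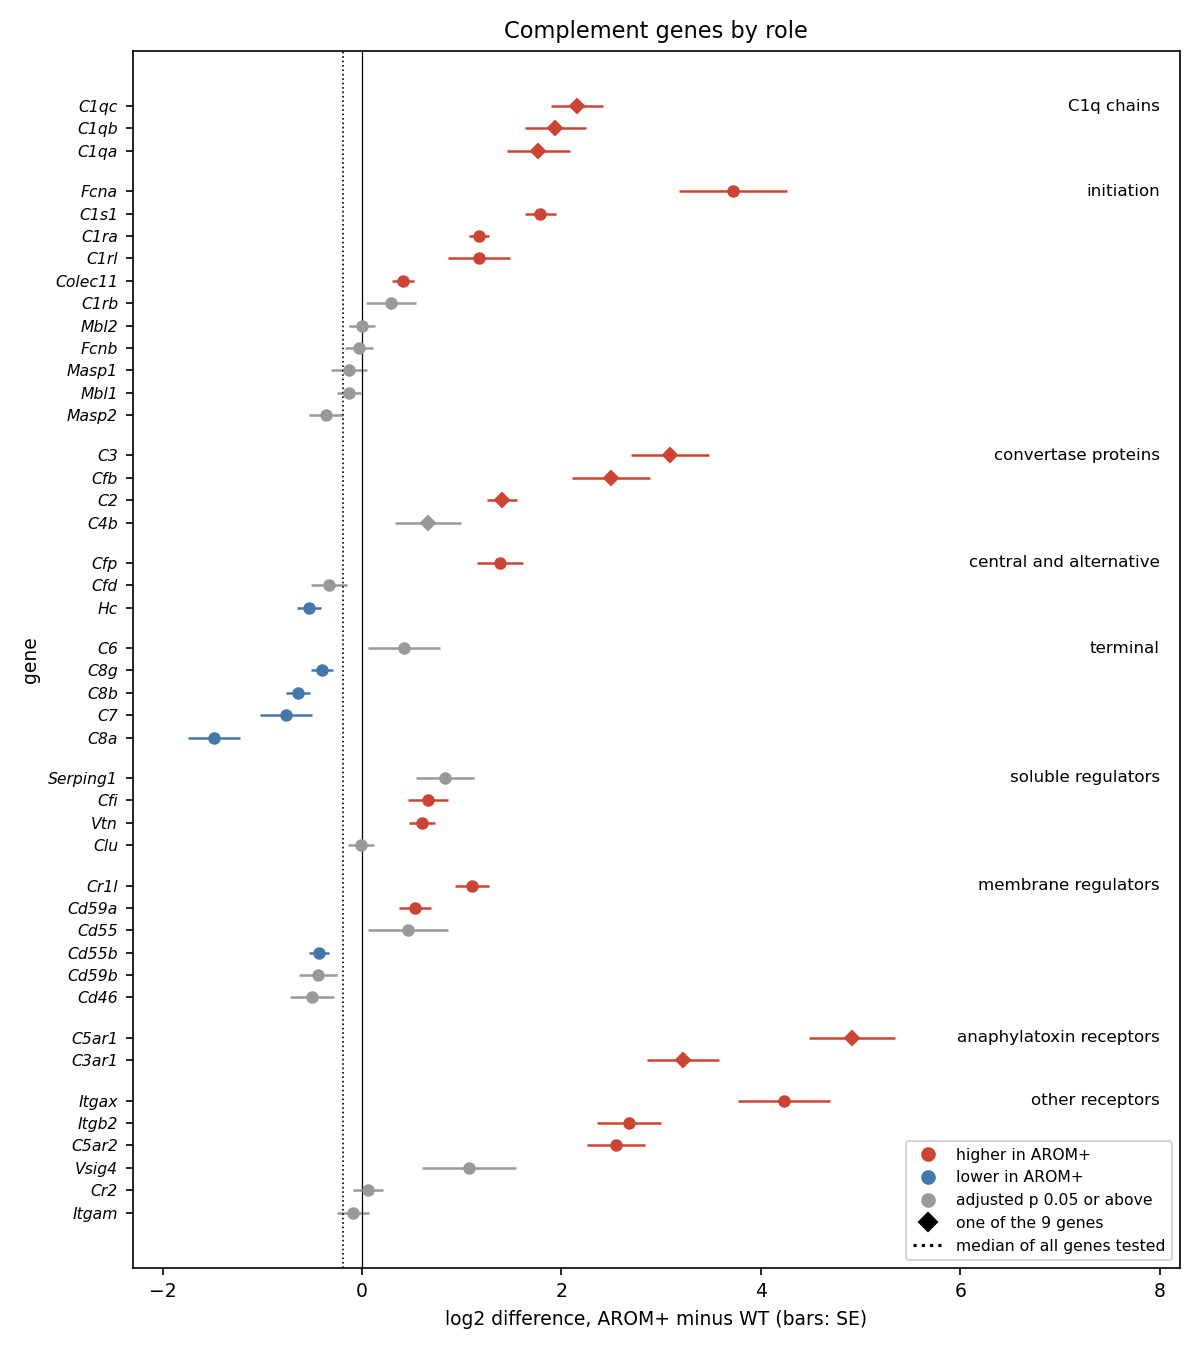
Log2 difference AROM+ minus WT with its SE (horizontal axis) for complement genes tested, grouped by role (vertical axis); diamonds are the 9 genes, circles the others, red and blue mark higher and lower calls, and the dotted line is the median of all genes (−0.19). C1q chains, C3, Cfb and the receptors lie far to the right, while 4 of 5 terminal genes lie to the left of 0; the C5ar1 point is fitted on WT values below background.

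Among the initiators, 5 of 11 were higher and 0 lower. C1ra and C1s1, the proteases that join C1q in the C1 complex, were higher by 1.17 ± 0.10 (adjusted p = 0.00236) and 1.79 ± 0.16 (adjusted p = 0.00244), and a second C1ra probe by 1.52. C1ra went from 0.25 to 0.50 in WT to 1.44 to 1.60 in AROM+, and C1s1, listed as C1s, from −0.41 to 0.07 to 1.36 to 1.72. Fcna, a ficolin of the lectin pathway that macrophages make, was higher by 3.72 ± 0.54, with −4.46 to −3.36 in WT and −1.18 to 0.94 in AROM+. C1rl (1.17 ± 0.31) and Colec11 (0.41 ± 0.11), a collectin, were called too, but C1rl lost the call without WT replicate 1 or 3 or AROM+ replicate 1 or 2 and Colec11 without any one WT replicate or AROM+ replicate 1 or 3 and with spike-in scaling (0.25). The lectin pathway protease Masp2 (−0.36 ± 0.17) and C1rb (0.29 ± 0.25) did not pass the test.

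C5 and the terminal proteins, which form the membrane attack pore, did not follow the early components. Hc, the gene of C5, was lower (−0.53 ± 0.12, adjusted p = 0.0138), with −2.16 to −1.94 in WT and −2.71 to −2.38 in AROM+, and missed the threshold without WT replicate 3 (adjusted p = 0.0528). Of the 5 terminal genes tested, 0 were higher and 4 lower. C8a (−1.48 ± 0.26) and C8b (−0.64 ± 0.12), chains of C8, were lower without overlap, though a second, dimmer C8a probe read −0.10. C8g, the third chain of C8, was at −0.40 ± 0.11 and C7 at −0.76 ± 0.26, and a second C7 probe read 0.15. The C7 call was lost without any one WT replicate or AROM+ replicate 2 or 3, with the mean of its probes (−0.30), with quantile normalization, in the deposited table, with no filter and with the replicate block. That of C8g was lost without WT replicate 2 or 3 or AROM+ replicate 1 or 3, with quantile normalization (−0.18), normexp, spike-in scaling and array weights. The count of lower genes over the whole list of 41 was 2 without WT replicate 3 and 3 with quantile normalization.

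Cfp, properdin, which stabilises the alternative convertase, was higher by 1.38 ± 0.23 (adjusted p = 0.00642), from 0.46 to 0.80 in WT to 1.62 to 2.52 in AROM+. Regulators that restrain the cascade were higher in part. Cfi, a protease that inactivates C3b and C4b, was higher by 0.66 ± 0.20 and Vtn, vitronectin, by 0.60 ± 0.13. The Cfi call was lost without any one WT replicate or AROM+ replicate 1 or 3, with normexp (0.43), spike-in scaling, no filter and the replicate block, and that of Vtn with spike-in scaling (0.44). Serping1, the inhibitor of C1 proteases, read 0.83 ± 0.29 (adjusted p = 0.0552), and its second probe 1.02 (adjusted p = 0.0359 over probes). Clu, clusterin, was at −0.01 ± 0.13, between −0.17 and 0.24 over the settings tried.

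On membranes, 2 of 6 regulators were higher and 1 lower. Cr1l, which limits C3 deposition on mouse cells, was higher by 1.10 ± 0.17 (adjusted p = 0.00564), and Cd59a, which blocks the pore, by 0.53 ± 0.16, a call lost without WT replicate 1 or 3 or AROM+ replicate 1 or 2 and with spike-in scaling (0.37). Cd55b, listed as Daf2, was lower (−0.43 ± 0.10) but not with quantile normalization (−0.21), with spike-in scaling or without WT replicate 3. Cd46, found in the mouse mainly on sperm, read −0.50 ± 0.22 (adjusted p = 0.0961). Of 6 other receptors, 3 were higher: Itgax, a chain of complement receptor CR4, by 4.23 ± 0.46, its partner Itgb2 by 2.68 ± 0.32 and C5ar2, the second C5a receptor, listed as Gpr77, by 2.55 ± 0.29. Itgax ran from −5.46 to −4.45 in WT and from −1.65 to 0.06 in AROM+, and C5ar2 from −4.90 to −4.79 and from −2.90 to −1.66. Vsig4, a macrophage receptor of C3 fragments, read 1.07 ± 0.47 (adjusted p = 0.101). Itgam, the CR3 chain, had 3 probes that disagreed, with the brightest at −0.09 ± 0.16 and another at 0.84.

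Markers of macrophages moved with these genes. Of 12 macrophage markers 9 were higher, 2 lower and 1 not called, and their summed linear level was 29.3 to 34.7 in WT and 49.4 to 69.7 in AROM+. Adgre1 (1.91 ± 0.22), Cd68 (2.40 ± 0.28) and Lyz2 (2.79 ± 0.36) were among the 9 higher. Cx3cr1 was the marker not called (1.15 ± 0.55, limma, adjusted p = 0.127). Csf1r was lower by its brightest probe (−0.44 ± 0.12) and higher by its other 2 (2.04 and 1.54), and Aif1 was lower (−0.33 ± 0.09). All 7 stromal markers were higher as well, with sums of 13.7 to 18.9 and 26.7 to 37.9. Of 7 neutrophil and monocyte markers tested 2 were higher and 1 lower (9.13 to 9.23 and 8.18 to 8.48). The 2 were S100a8 (2.73 ± 0.67), well above background on 1 WT array only, and S100a9 (1.69 ± 0.55). Mpo was lower (−0.87 ± 0.09). Of 7 lymphocyte markers 1 was higher and 1 lower (0.64 to 0.657 and 0.695 to 1.56). Of 3 mast cell markers 1 was higher and 0 lower (1.47 to 1.83 and 1.65 to 2.22). Of 5 endothelial markers 4 were higher and 1 lower (2.09 to 2.35 and 2.08 to 2.8). A sum mostly follows its brightest genes, so it can differ from most of its list. Aif1 (4.08 in WT) and Csf1r (2.47) were the brightest macrophage markers. Csf3r (3.12, difference −0.15 ± 0.08) was the brightest of the neutrophil list and Kdr (0.86, difference −0.39 ± 0.09) of the endothelial list.

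Among hepatocyte markers, listed because the liver makes much C3, 1 of 4 tested was higher and 1 lower (0.268 to 0.292 and 0.369 to 0.493), and Alb was well above background on 1 WT array and 0 AROM+ arrays. Germ cell markers were lower in 4 of 8 and higher in 0 (160 to 228 in WT and 139 to 149 in AROM+), and all 8 were well above background on all 6 arrays, as the tissue label has it. Leydig cell markers were higher in 3 of 6 (17.4 to 32.6 and 30.1 to 46.4) and Sertoli cell markers in 2 of 6 (14 to 16.9 and 13.5 to 21.4), with 0 lower in either list. Epididymis markers had 1 of 3 higher and 1 lower (0.822 to 0.94 and 0.6 to 0.82), with Lcn5 and Lcn8 not above background on any array. The part of these cell types in the complement differences was not tested.

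Each gene was also set against the macrophage markers within the same array. The median of the 12 markers was 0.06, 0.66 and −0.09 in WT and 2.53, 2.06 and 2.58 in AROM+, a shift of 2.18. The median of the single marker differences was 1.98, and these ran from −0.44 (Csf1r) to 2.79 (Lyz2). The relative changes below thus depend on the summary used. Relative to the marker median, the C1q chains changed by −0.02 (C1qc), −0.23 (C1qb) and −0.40 (C1qa), with overlap between the groups in each. C1qc read −0.27, −0.44 and −0.22 in the WT testes and −0.05, −0.53 and −0.42 in the AROM+ testes on this relative scale. Cfb, at a relative change of 0.32, overlapped too. In the two-sided exact permutation test these 4 genes had p of 1, 0.4, 0.3 and 0.5, but 3 against 3 allows none below 0.1, so the test says nothing on whether they moved with the markers.

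Relative values of C3, C3ar1, C2 and C4b, and of C5ar1, did not overlap between the groups, 5 of 9 genes where 97.2% of all genes did not overlap in one direction or the other. C3 was at −0.72, −0.64 and −0.32 in WT and 0.73, −0.23 and 0.57 in AROM+, a relative change of 0.92. C3ar1 was at −3.80, −3.53 and −3.84 and at −2.49, −2.97 and −2.60, a change of 1.04. These 2 genes were above the marker shift.

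C2 lay below the marker shift, at 1.50, 1.03 and 1.49 in WT and 0.58, 1.01 and 0.08 in AROM+, a change of −0.78. C4b lay below it as well, at 0.74, 0.33 and 1.02 and at −0.46, −1.30 and −0.69, a change of −1.51. C5ar1 had no WT array above background. With WT values raised to the floor given above, its rise exceeded the marker shift by 1.07 on the log2 scale. That value is not a strict lower limit, and with normexp background correction C5ar1 overlapped between the groups. It could not be read with the filter for all 6 arrays, which left 4 genes. The markers rose by more than most genes, so that on this relative scale 96.8% of all genes were lower without overlap in AROM+ and 0.391% were higher. A place below the markers is therefore what nearly all genes had, C2 and C4b among them.

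The 4 genes measured in both groups had p = 0.1 in the two-sided exact permutation test, the smallest that 3 against 3 allows, and 0.18 after Benjamini-Hochberg adjustment over the 9 genes. None could pass a threshold of 0.05 in this design. Which genes lay apart moved with the setting. With normexp background correction they were C3, C3ar1 and C4b. With probes averaged per gene C1qc and Cfb were also apart and C2 was not (6 genes), and with quantile normalization C2 was not (4 genes). Without AROM+ replicate 1, C1qa and C1qb were apart too (7 genes), and without AROM+ replicate 2, Cfb was (6 genes).

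**Figure D3:**
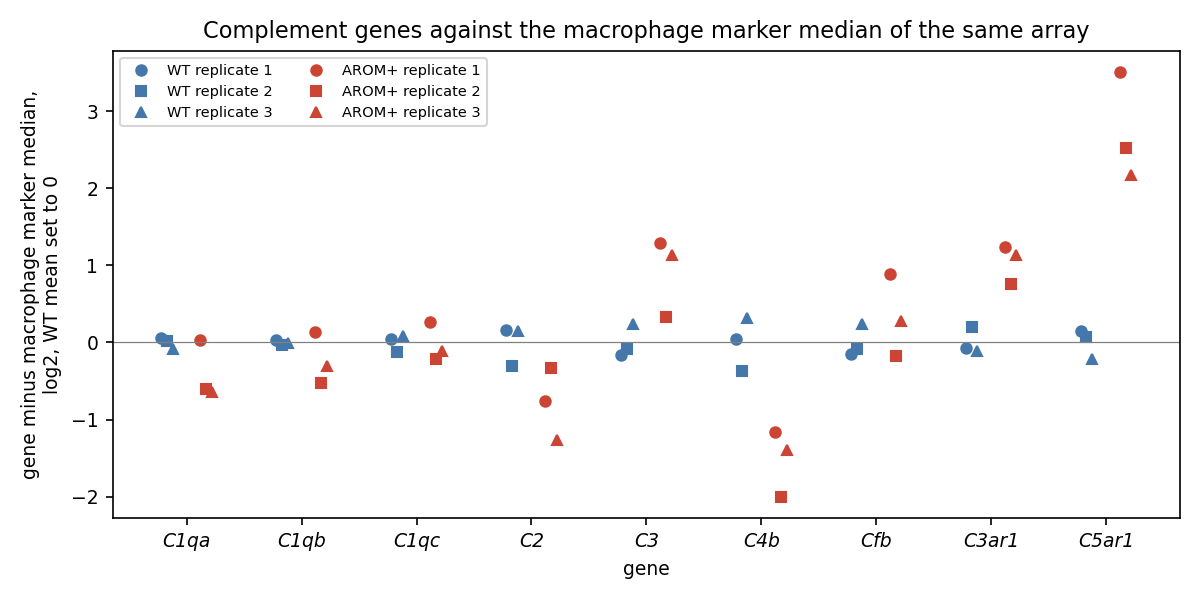
Level of each complement gene minus the median of 12 macrophage markers on the same array, on the log2 scale and with the gene's WT mean set to 0 (vertical axis), by gene (horizontal axis); each symbol is 1 testis, blue for WT and red for AROM+. C1q chains and Cfb overlap between groups, C3, C3ar1 and C5ar1 lie above the WT values in AROM+, and C2 and C4b lie below; the C5ar1 points of WT are below background.

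Several of the genes are neighbours, and the probes between and around them (chosen after the values of the complement genes were seen) were read for comparison. The 3 C1q probes lie within 15891 bases of chromosome 4, with 0 probes of other genes between them. Within 100000 bases on either side, Epha8 was lower (−0.79 ± 0.24) and Zbtb40 was not called (−0.16 ± 0.09). C2, Cfb and C4b lie within 134307 bases of chromosome 17, from 34865328 to 34999634. Of the 6 other probes inside that stretch, 0 were higher and 3 lower (limma over probes, adjusted p under 0.05), among them Skiv2l (−0.54 ± 0.13) and Rdbp (−0.31 ± 0.10), the neighbour of Cfb. With the flanks, 3 of 32 other probes were higher (Zbtb12, 0.81 ± 0.18, Neu1, 1.35 ± 0.22, and Slc44a4) and 9 were lower. Those 32 probes carry 20 gene names, and many lie in a single locus beyond C2, so they are not separate genes. On the whole array 14% of probes were called higher. For lower calls only the share of genes, 31.4%, was taken, which is not a like figure for the 9 probes. With so few probes, these counts do not set the neighbours apart from the rest of the array. Slc44a4 had the largest fitted difference of the region, 3.27 ± 0.44 (limma over probes, adjusted p = 0.00452), but was not well above background on any WT array. With WT values raised to a floor as for C5ar1, it was 3.88-fold higher, which is not a strict lower limit either. Inside the stretch, Cfb and C2 were the genes called higher.

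**Figure D4:**
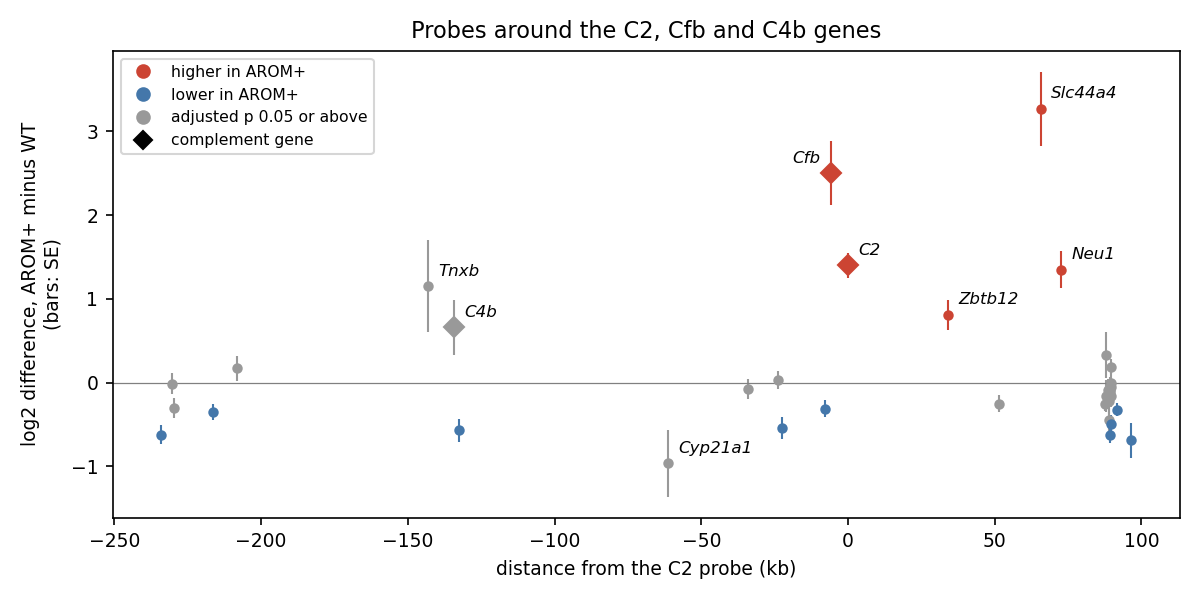
Log2 difference AROM+ minus WT with its SE (vertical axis) for each probe by its distance in kb from the C2 probe (horizontal axis); diamonds are C2, Cfb and C4b, circles the 32 other probes, and red and blue mark higher and lower calls. Cfb (2.50), C2 (1.40) and, beyond C2, Zbtb12 (0.81), Slc44a4 (3.27, fitted on WT values below background) and Neu1 (1.35) were called higher, and the 6 other probes between C4b and C2 lie between −0.96 and 0.03.

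In their rank among all 28925 genes, 0.349% of genes had a larger difference than C3ar1, 0.387% than C3 and 0.702% than Cfb. The share was 1.06% for C1qc, 1.47% for C1qb, 1.89% for C1qa and 2.98% for C2, and 9.63% for C4b. Over all genes, 5.32% were at least 2-fold higher in AROM+.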

How the data were processed

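Per the file headers, Feature Extraction 10.7.3.1 (10.10 per the submitters' processing notes) gave background-corrected spot intensities, deposited as scanner output for 6 arrays. The authors' deposited log2 table was set against these values. It nearly equals log2 intensity minus a constant per array (slope 1, r of 0.9998 to 0.9999), with column medians of −3.12 to −3.02. Its scaling rule is not given in the sources used here.

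For each array, log2 of the processed intensity minus its 75th percentile over non-control spots was taken, outlier-flagged spots were dropped (123 to 192 per array) and repeat spots of a probe averaged. Probes had to exceed background on every array of WT or of AROM+, leaving 42637. The brightest such probe stood for its gene name. limma 3.58.1 (R 4.3.3; lmFit, eBayes) compared groups over 28925 genes with Benjamini-Hochberg adjustment. The code was tested on simulated data. Probe coordinates are the files' (NCBI37/mm9). The number of arrays limits precision.

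The 9 genes and the lists were chosen with earlier results of these data known. Named are all 9 genes, called list genes (1 is counted in the list but not reported here), uncalled ones that describe a role, markers and the 5 genes closest in profile to C1q. Alternatives covered background correction, scaling, filters, probe averaging, the variance model, array weights, the replicate block and leaving out each array.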

Additional observations from a re-analysis of the deposited data

How the results depend on the processing

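The same 8 genes were called higher in all alternatives in which they could be tested, except that the filter for all 6 arrays leaves 7, since C5ar1 is then not tested. Over the alternatives the difference ranged from 1.49 to 2.04 for C1qa, 1.69 to 2.25 for C1qb, 1.94 to 2.42 for C1qc, 1.24 to 1.59 for C2, 2.84 to 3.55 for C3, 2.15 to 2.92 for Cfb, 2.96 to 3.54 for C3ar1 and 0.41 to 1.07 for C4b, which was called in 1 of 17. For C5ar1 the fitted value ran from 2.42 to 5.19, with WT values that were not above background. Leaving out each testis gave 8 to 9 genes of the 9 and 9 to 10 of the 10 probes, 10 to 13 list genes higher, 2 to 5 lower, and 5 to 7 genes apart from the macrophage markers. Over all genes it gave 2756 to 3944 higher and 4936 to 8040 lower, against 4201 and 9073 as reported (2775 and 5427 without WT replicate 1, 2756 and 4936 without WT replicate 3).

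Normexp left 3 genes apart from the macrophage markers, and quantile normalization left 3 list genes lower. All-gene counts were 2071 higher and 6218 lower with spike-in scaling, which put the median difference at −0.34, and 4700 and 6189 with quantile normalization. Clu read 0.24 with quantile normalization, 0.01 in the deposited table, 0.02 with array weights, and −0.12 to 0.08 when each testis was left out (0.07 without WT replicate 2, 0.08 without AROM+ replicate 1). Itgam read 0.16 with quantile normalization, 0.23 as a mean of probes and −0.23 to 0.05 when each testis was left out (0.05 without WT replicate 2), and Csf1r 1.05 as a mean of probes, which includes its 2 higher probes. Other causes were not tested.

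Deviations of same-numbered testes had r of 0.05, −0.17 and 0.05 across genes, and those of differently numbered testes −0.14 to 0.11. With 3 testes per group these values cannot decide whether same-numbered testes were paired. With the replicate number as a block, 8 of the 9 genes, 9 of 10 probes, 13 list genes higher and 5 lower, and 3554 and 7104 of all genes were called. C5ar1 was not well above background in WT, so its WT level was not measured.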
